A study of Mus musculus with 13 samples.

Results

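The genes described are Mest, Copg2 and Klf14, the imprinted cluster around Mest on mouse chromosome 6. They were taken by symbol from the deposited table, and all 3 were found among its 23217 genes. RNA with a poly(A) tail was measured in whole embryos, 10 xHomo and 3 xHet, at embryonic day 9.5. All were of the C57BL/6J strain. The labels do not spell out the genotype names. Going by general knowledge of the study, the fathers of the xHomo and xHet embryos were homozygous and heterozygous for a mutation of Tet1, an enzyme that oxidizes 5-methylcytosine. Levels are given in FPKM, a fragment number corrected for transcript length and library size, so levels of different genes can be set side by side. The labels name no litter, batch or sex, so p-values cover the spread between these embryos alone.

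Mest, also called Peg1, encodes a protein of the alpha/beta hydrolase fold made in mesoderm and its derivatives. In the mouse its promoter is methylated in the oocyte and not in sperm, and the message comes from the paternal copy. Copg2 lies tail to tail with Mest and encodes a gamma subunit of coatomer, the coat of vesicles that travel from the Golgi back to the endoplasmic reticulum. In mouse brain Copg2 is expressed mainly from the maternal copy, and a long form of Mest that runs on into Copg2 is known there to lower Copg2 on the paternal chromosome. Klf14, a gene without introns, encodes a zinc finger transcription factor of the Krüppel-like family and is expressed from the maternal copy. Parental copies cannot be separated in the table, and DNA methylation was not among the data analysed here.

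The table gives Mest and Copg2 the same joined locus (mm9, chromosome 6, 30683506 to 30846760, counted from 1) and Klf14 a locus of its own (30906021 to 30908990). In RefSeq on GRCm38.p6 the 3' ends of Mest and Copg2, which lie on opposite strands, overlap by 913 bases (30747554 to 30748466). The table lists 3 start sites for Mest and 1 each for Copg2 and Klf14, and gives 1 value per gene, so the Mest starts are not told apart. Promoters are shown because the Mest promoter carries the imprint, with each CpG, the dinucleotide that can be methylated, in capitals. RefSeq promoter windows of 300 bases around a start were found for Mest and Copg2, and of the Mest windows 1 upstream and 1 downstream are printed, whose starts lie 4544 bases apart. They are Mest upstream (GRCm38.p6, chr6:30733256-30733555, plus strand), Mest downstream (chr6:30737800-30738099, plus strand) and Copg2 (chr6:30896745-30897044, minus strand).
Mest upstream start: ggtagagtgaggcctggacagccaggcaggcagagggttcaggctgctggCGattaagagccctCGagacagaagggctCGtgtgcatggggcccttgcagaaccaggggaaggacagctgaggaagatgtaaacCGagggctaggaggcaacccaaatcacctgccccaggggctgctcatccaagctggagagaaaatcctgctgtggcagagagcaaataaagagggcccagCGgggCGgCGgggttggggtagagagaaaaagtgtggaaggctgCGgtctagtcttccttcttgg
Mest downstream start: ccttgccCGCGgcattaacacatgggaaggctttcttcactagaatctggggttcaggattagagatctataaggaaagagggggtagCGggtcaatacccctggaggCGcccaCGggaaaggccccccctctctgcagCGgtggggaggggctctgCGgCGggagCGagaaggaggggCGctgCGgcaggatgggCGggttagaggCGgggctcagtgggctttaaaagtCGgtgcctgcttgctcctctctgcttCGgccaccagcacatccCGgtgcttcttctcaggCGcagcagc
Copg2 start: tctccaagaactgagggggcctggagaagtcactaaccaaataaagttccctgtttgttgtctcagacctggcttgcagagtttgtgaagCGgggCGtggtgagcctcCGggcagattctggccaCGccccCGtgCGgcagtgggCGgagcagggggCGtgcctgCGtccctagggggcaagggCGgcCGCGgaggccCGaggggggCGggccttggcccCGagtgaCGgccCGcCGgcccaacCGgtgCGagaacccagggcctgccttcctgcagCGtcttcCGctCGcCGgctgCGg
The motif searched was CG, which reads the same on both strands. The upstream Mest window holds 8 CpGs, and 48.6% of 32851 RefSeq promoter windows of the same length hold at least as many. The downstream Mest window holds 17 CpGs, reached by 31.4% of windows, and the Copg2 window 25, reached by 18.4%.

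Mest was one of the most abundant messages. Over all 10 xHomo embryos its SD was 34.9% of its mean FPKM, against 26.9% for Klf14 and 21.9% for Copg2. That order rested on xHomo embryo 9. Without it Mest averaged 1108 ± 265 FPKM and Klf14 0.382 ± 0.107 FPKM (SD, n = 9), a larger spread in proportion for Klf14. Mest ran from 296 FPKM through a median of 1024 to 1468 FPKM in xHomo embryos, against 1133, 1049.9 and 977 FPKM in xHet embryos 1 to 3. The xHomo values spread on either side of the xHet range. In xHomo embryos 4, 5 and 6 Mest stood at 1468, 1424 and 1369 FPKM, above every xHet embryo. The values of xHomo embryos 1, 2 and 7, with 1050.1, 1069 and 997 FPKM, lay inside the xHet range. Those of xHomo embryos 8 and 10, with 975 and 968 FPKM, lay just under that range. Mest was lowest in xHomo embryos 3 and 9, with 650.2 and 296 FPKM. These last values are 61.7% and 28.1% of the xHet mean. By level Mest ranked 38th to 269th of all genes of the table in xHomo embryos and 80th to 86th in xHet embryos, and its lowest rank was in xHomo embryo 9.

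As a group mean Mest did not differ detectably. It averaged 1027 ± 358 FPKM in xHomo embryos (SD, n = 10) and 1053 ± 77.8 FPKM in xHet embryos (SD, n = 3). The difference on the log2(FPKM+1) scale was -0.15 (SE 0.37, limma adjusted p = 0.906). Over 12755 genes with a mean of at least 1 FPKM this fit called 0.0235% of genes at an adjusted p under 0.05, and neither Mest nor Copg2 was among them. Without xHomo embryo 9 the Mest difference changed sign, to 0.036 (limma adjusted p = 0.962). The SD of log2(FPKM+1) for Mest was 0.68 among xHomo embryos, larger than that of 97.1% of the genes tested, and 0.11 among xHet embryos, larger than that of 54.8%. The value of 0.68 includes xHomo embryo 9, and the SD on this scale without that embryo was not taken.

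**Figure D1:**
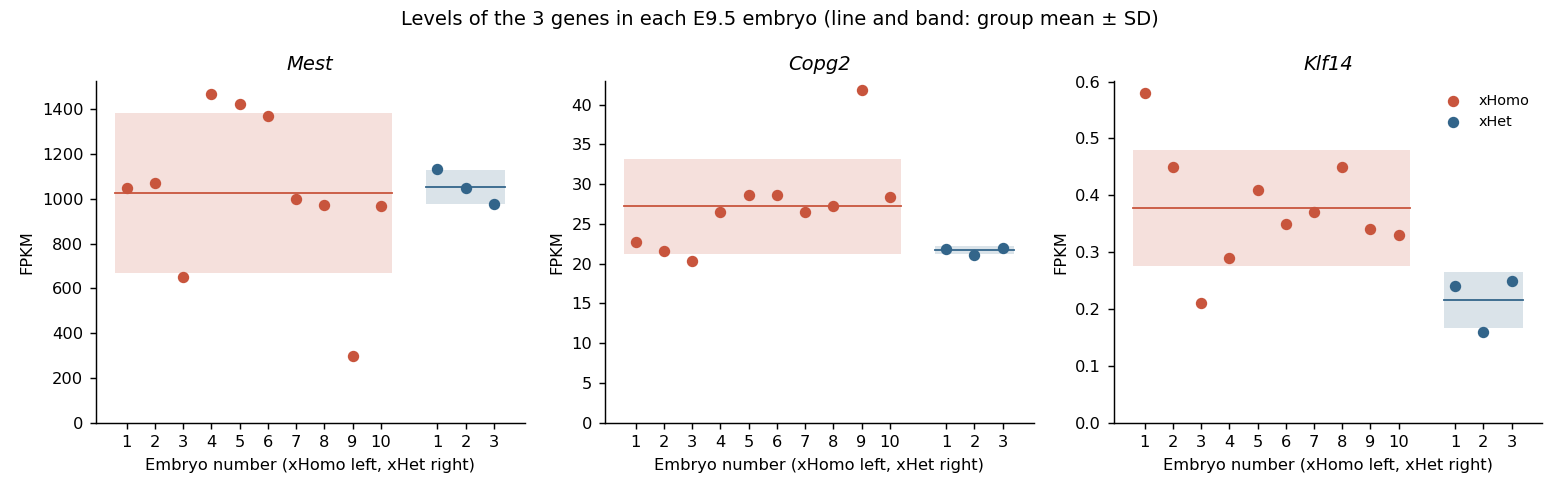
FPKM of Mest, Copg2 and Klf14 (a panel each, axes from 0) in xHomo embryos 1 to 10 and xHet embryos 1 to 3, 1 point per embryo, with a line and band for the group mean ± SD. In xHomo embryo 9 Mest is lowest at 296 FPKM and Copg2 highest at 41.9 FPKM.

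Copg2 was nearly constant in the xHet embryos and mostly above them in the xHomo embryos. It ran from 20.4 FPKM through a median of 26.8 to 41.9 FPKM in xHomo embryos, against 21.9, 21.1 and 22.03 FPKM in xHet embryos 1 to 3. It stood above every xHet embryo in 8 of 10 xHomo embryos. The exceptions were xHomo embryo 2, at 21.6 FPKM inside the xHet range, and xHomo embryo 3, at 20.4 FPKM below it. Of the 8, xHomo embryo 1 had 22.7 FPKM, xHomo embryos 4, 5, 6, 7, 8 and 10 had 26.4 to 28.6 FPKM, and xHomo embryo 9 stood apart at 41.9 FPKM. That is 193% of the xHet mean.

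The Copg2 means were 27.2 ± 5.96 FPKM in xHomo embryos (SD, n = 10) and 21.7 ± 0.489 FPKM in xHet embryos (SD, n = 3). The log2 difference was 0.29 (SE 0.16), which did not pass (limma p = 0.0852, adjusted p = 0.575). At an unadjusted p under 0.05, 7.63% of all tested genes were higher in xHomo embryos, and Copg2 was not among these. Without xHomo embryo 9 the difference was 0.22 (limma adjusted p = 0.569), with a mean of 25.6 ± 3.19 FPKM (SD, n = 9).

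Read together, Mest was below and Copg2 above every xHet embryo in xHomo embryos 8, 9 and 10, by far the most in xHomo embryo 9. In xHomo embryos 8 and 10 Mest, at 975 and 968 FPKM, was close to the lowest xHet value of 977 FPKM. Both genes were above every xHet embryo in xHomo embryos 4, 5 and 6. In xHomo embryo 9 the log2 difference from the xHet mean was -1.82 for Mest and 0.92 for Copg2. A difference of 1 log2 unit or more was found for Mest alone of the 3 members, in xHomo embryo 9 alone of the 13. For Klf14 this says little, since adding 1 FPKM shrinks differences between values under 1 FPKM. Klf14 in xHomo embryo 1 was 268% of the xHet mean, yet its difference on this scale was 0.38, also short of 1.5-fold. In xHomo embryo 9, 4.56% of tested genes differed by 1 log2 unit or more in either direction and 1.53% on the lower side. Mest had the 100th lowest difference and Copg2 the 508th highest of the 12755 genes there. At a 1.5-fold threshold Copg2 in xHomo embryo 9 and Mest in xHomo embryo 3 were added. Of all tested genes, 11.6% were that much higher in xHomo embryo 9 and 27.0% that much lower in xHomo embryo 3, so the Mest value of xHomo embryo 3 lies in a library where many genes were lower. The median difference of all tested genes was 0.081 in xHomo embryo 9 and -0.27 in xHomo embryo 3.

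**Figure D2:**
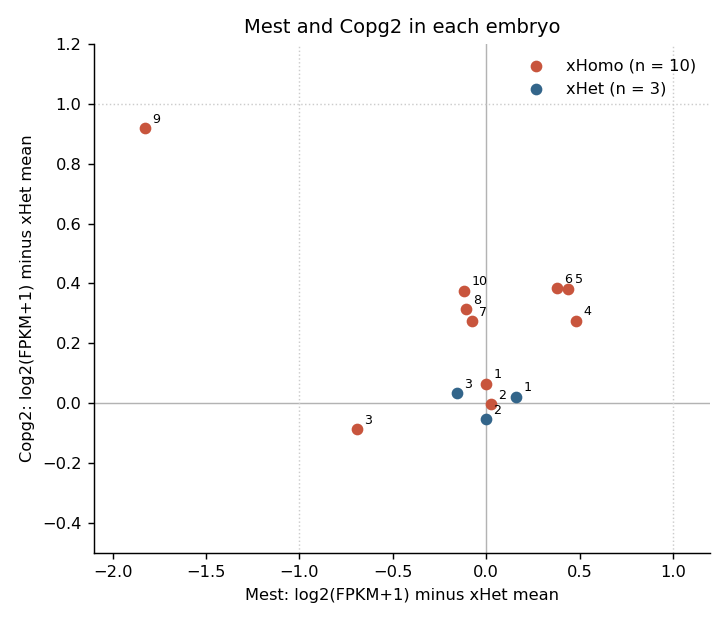
Difference of each embryo from the xHet mean in log2(FPKM+1), Mest on the horizontal and Copg2 on the vertical axis, with xHet embryos set against the other 2 xHet embryos and dotted lines at 1 log2 unit. The point for xHomo embryo 9 lies alone at -1.82 for Mest and 0.92 for Copg2.

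The ratio of Mest to Copg2 within an embryo does not depend on how its library is scaled. Mest FPKM was 7.07 times Copg2 FPKM in xHomo embryo 9 and 31.9 to 55.5 times in the other 9 xHomo embryos, against 51.7, 49.7 and 44.4 times in xHet embryos 1 to 3. The ratio in xHomo embryo 9 lay outside every other value. The ratios of xHomo embryos 3, 7, 8 and 10, at 31.9, 37.7, 35.8 and 34.1, were below the xHet range as well. Those of xHomo embryos 1, 2, 5 and 6, at 46.2, 49.5, 49.8 and 47.9, were inside that range, and xHomo embryo 4, at 55.5, was above it. With 1 added to both FPKM values, the mean log2 ratio was 5.10 ± 0.85 in xHomo embryos (SD, n = 10) and 5.54 ± 0.11 in xHet embryos (SD, n = 3). The difference of -0.44 did not pass a two-sided exact permutation test, which used all 286 ways to split 13 embryos into 10 and 3 (p = 0.367, with 0.0035 the smallest p possible). It was -0.18 without xHomo embryo 9 (exact permutation p = 0.345).

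**Figure D3:**
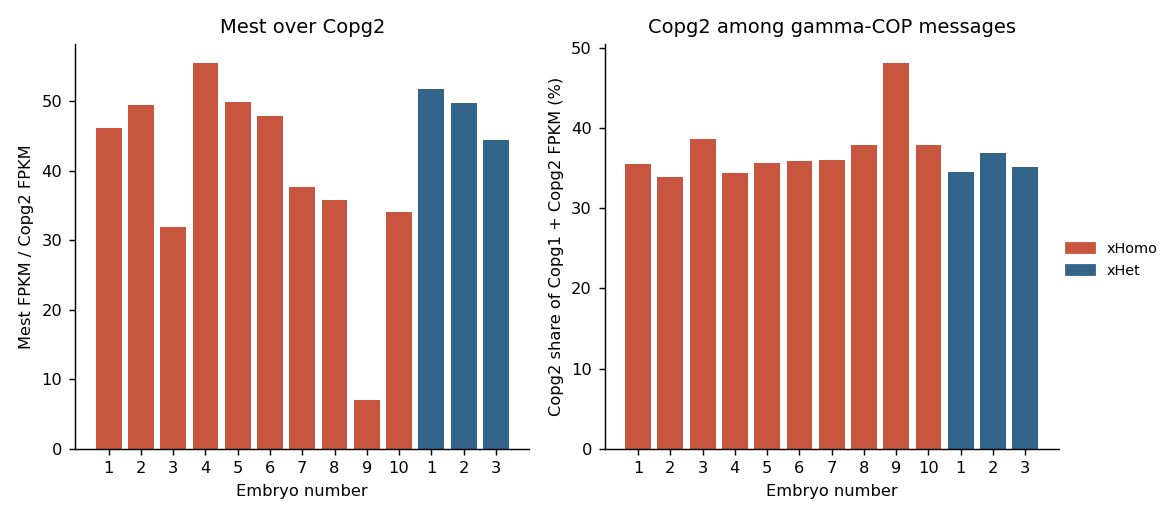
Bars from 0 for each embryo show Mest FPKM divided by Copg2 FPKM (left) and Copg2 as a percent of the summed Copg1 and Copg2 FPKM (right), xHomo embryos left of xHet embryos. In xHomo embryo 9 the ratio is 7.07, the lowest, and the share is 48.1%, the highest.

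Copg2 shares its place in the coat with Copg1, the gamma subunit encoded by a separate gene that the table lists under its older symbol Copg. The share of Copg2 in the summed FPKM of the pair, a measure chosen after values were seen and given without a test, was 33.9% to 48.1% in xHomo embryos, against 34.6%, 36.9% and 35.2% in xHet embryos 1 to 3. The top value was that of xHomo embryo 9, and the other 9 xHomo embryos reached 38.6% at most. Copg1 itself was near the xHomo mean of 45.2 ± 5.78 FPKM in xHomo embryo 9, and the xHet mean was 39.4 ± 2.84 FPKM (SD, n = 10 and 3). The paralogues differ in sequence, but how reads matching either gene were assigned is not given in the sources used here.

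Klf14 was barely detected. It ran from 0.21 through a median of 0.36 to 0.58 FPKM in xHomo embryos, against 0.24, 0.16 and 0.25 FPKM in xHet embryos 1 to 3. It was above every xHet embryo in 9 of 10 xHomo embryos, and xHomo embryo 3, at 0.21 FPKM, lay inside the xHet range. The top value was in xHomo embryo 1, and xHomo embryo 9, where Mest was lowest, had 0.34 FPKM. Klf14 averaged 0.378 ± 0.102 FPKM in xHomo embryos (SD, n = 10) and 0.217 ± 0.0493 FPKM in xHet embryos (SD, n = 3). The log2(FPKM+1) difference was 0.18, and the two-sided exact permutation test gave an unadjusted p = 0.0210. Klf14 lay below the filter of 1 FPKM, and in a limma fit of all 23217 genes its adjusted p was 0.578, so it did not pass over all genes. Leaving out xHet embryo 1, 2 or 3 took the exact permutation p to 0.0606, 0.106 and 0.0606. The read depth is unknown, and so the counting error of such low values is unknown.

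Other genes around the cluster were described next. Of 14 listed neighbours 13 were found by symbol, 6 were tested and 0 passed. Their median log2 change was 0.057, beside 0.046 for all tested genes, and it was -0.016 after rescaling to TPM. At an unadjusted p under 0.05, 1 of the 6 was higher, where the share of all tested genes was 7.63%. In no embryo did any of the 6 differ from the xHet mean by 1 log2 unit. In xHomo embryo 9 the largest of their differences was that of Ube2h, which encodes a ubiquitin-conjugating enzyme. Ube2h stood there at 20.8 FPKM, a difference of 0.56, and averaged 16.3 ± 1.97 FPKM in xHomo and 13.8 ± 0.561 FPKM in xHet embryos (limma adjusted p = 0.531). The nearest tested gene beside Mest, Cep41, which encodes a centrosomal protein, averaged 6.32 ± 0.897 FPKM in xHomo and 7.23 ± 0.440 FPKM in xHet embryos (limma adjusted p = 0.634).

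The remaining tested neighbours lie farther out. Zc3hc1 averaged 27.7 ± 1.94 FPKM in xHomo and 24.4 ± 4.15 FPKM in xHet embryos, and Klhdc10, a kelch domain gene, 22.6 ± 3.31 FPKM in xHomo and 23.8 ± 0.675 FPKM in xHet embryos. Nrf1, which encodes a transcription factor of mitochondrial biogenesis genes, averaged 17.9 ± 2.08 FPKM in xHomo and 17.8 ± 0.402 FPKM in xHet embryos. Mkln1, which encodes muskelin, averaged 13.7 ± 1.61 FPKM in xHomo and 12.6 ± 0.857 FPKM in xHet embryos. Limma adjusted p for these 4 ran from 0.554 to 0.995. Below the filter, Cpa1 averaged 0.675 ± 0.333 FPKM in xHomo and 1.17 ± 0.243 FPKM in xHet embryos. The carboxypeptidase genes Cpa4 and Cpa5 and the testis gene Tsga13 reached at most 0.65, 0.56 and 0.06 FPKM in xHomo embryos, against 0.48, 0.61 and 0.20 FPKM in xHet embryos. Mir335, a microRNA gene inside Mest, and Mir29a and Mir29b-1 were listed at 0 in all 13 embryos. A poly(A) library does not measure mature microRNAs.

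**Figure D4:**
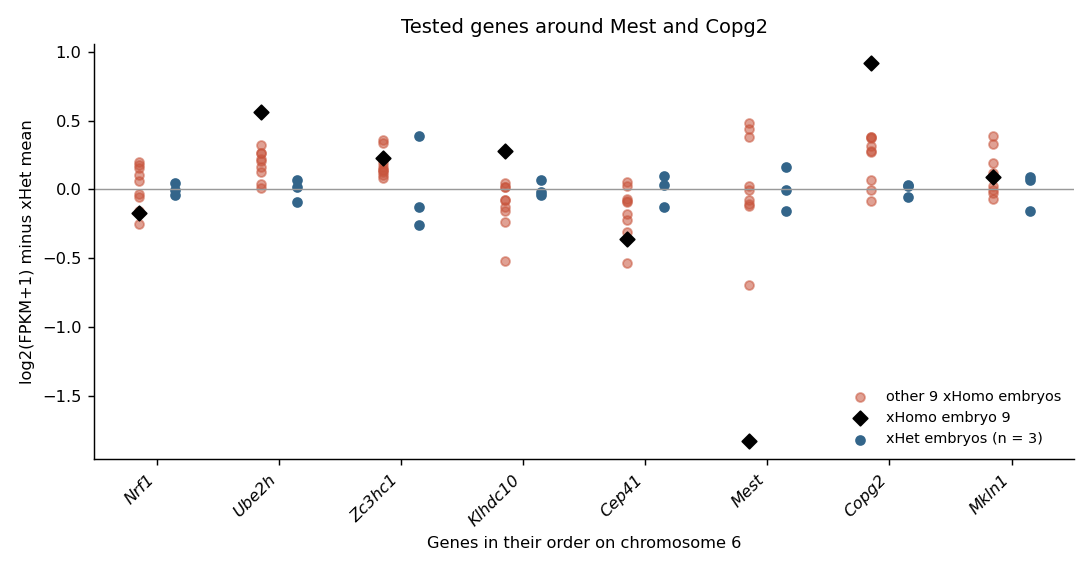
Difference from the xHet mean in log2(FPKM+1) for the tested genes in their order on chromosome 6, 1 point per embryo, with xHomo embryos left of xHet embryos xHomo embryo 9 as a black diamond and each xHet embryo set against the other 2. For xHomo embryo 9 Mest lies at -1.82 and Copg2 at 0.92, while the neighbour with the largest difference, Ube2h, lies at 0.56.

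Growth-linked imprinted genes of other domains, of which only Peg10 and Sgce also lie on chromosome 6, gave the setting of xHomo embryo 9. Of 14 such genes 3 differed by at least 1 log2 unit there, where the share of all tested genes was 4.56%. Between 1 and 4 of the 14 did so in each xHomo embryo and 0 in each xHet embryo, so the count in xHomo embryo 9 was within the xHomo range. As group means 0 of 14 passed. In xHomo embryo 9 the log2 difference from the xHet mean was 1.22 for Grb10, whose product restrains growth, and -6.38 and -3.64 for the paternally expressed neighbours Peg10 and Sgce. None of these was particular to that embryo. In xHomo embryos 1, 7, 8 and 10 Peg10 differed by -6.35, -6.38, -6.32 and -4.02, and Sgce was low as well. Grb10 differed by 1.02, 1.30 and 1.42 in xHomo embryos 2, 4 and 6. Mest stood at 968 to 1468 FPKM in all those embryos. The smallest unadjusted p-values of the list were all of genes higher in xHomo embryos, 4 of the 14 under 0.05 where the share of all tested genes was 7.63%. The growth inhibitor gene Cdkn1c averaged 107 ± 32.6 FPKM in xHomo and 69.8 ± 4.04 FPKM in xHet embryos, and the noncoding RNA H19 669 ± 119 FPKM in xHomo and 497 ± 23.1 FPKM in xHet embryos. Grb10 averaged 368 ± 133 FPKM in xHomo and 214 ± 5.76 FPKM in xHet embryos, and Gnas, which encodes a G protein subunit, 669 ± 59.7 FPKM in xHomo and 569 ± 10.6 FPKM in xHet embryos. Limma adjusted p for these 4 ran from 0.494 to 0.526. In xHomo embryo 3, the other embryo with low Mest, 4 of the 14 differed by at least 1 log2 unit, in a library where 10.2% of all tested genes did. The list's median log2 change was 0.059, and it turned to -0.018 after TPM rescaling and to -0.049 after quantile normalization.

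The COPI coat and the Arf1 cycle that recruits it were compared with Copg2. Of 13 genes besides Copg2, 12 were higher and 1 lower in xHomo embryos, as were 7620 and 5135 of all tested genes, and 0 passed. Their median log2 change was 0.18, against 0.046 for all tested genes, and 0.10 against -0.026 after TPM rescaling. An unadjusted p under 0.05 was found for 2 of 13 on the higher side, where the share of all tested genes was 7.63%. These were Arfgap3, which encodes a GTPase-activating protein for Arf1, at 5.35 ± 0.530 FPKM in xHomo and 4.21 ± 0.584 FPKM in xHet embryos, and Arf1, the GTPase that recruits the coat, at 169.6 ± 15.3 FPKM in xHomo and 143 ± 4.67 FPKM in xHet embryos (limma adjusted p = 0.494 and 0.509). The zeta subunit gene Copz1 averaged 96.7 ± 8.51 FPKM in xHomo and 85.2 ± 6.27 FPKM in xHet embryos. The delta subunit gene Arcn1 averaged 49.8 ± 5.06 FPKM in xHomo and 43.8 ± 1.49 FPKM in xHet embryos (limma adjusted p = 0.569 and 0.571). Within xHomo embryo 9, and chosen after its values were seen, Copz2, the second zeta subunit gene, was 17.5 FPKM and 0.90 log2 units above the xHet mean, close in size to Copg2. The coat subunit gene Cope, at 125.8 FPKM, was 0.75 above. The other genes of the list ran from -0.26 for the beta' subunit gene Copb2 to 0.42 for Arfgap3, with 0.20 for Copg1. Copz2 was not high in xHomo embryo 9 alone, with differences of 0.56, 0.78 and 0.65 in xHomo embryos 7, 8 and 10.

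Relatives of Klf14 were measured in the same way. Of 16 other Krüppel-like factor genes 11 were tested and 0 passed, 7 higher and 4 lower. Their median log2 change was 0.039, near that of all tested genes, and -0.033 after TPM rescaling. Klf6 averaged 8.22 ± 0.932 FPKM in xHomo and 6.37 ± 0.901 FPKM in xHet embryos (limma adjusted p = 0.491). Klf15 averaged 2.41 ± 0.910 FPKM in xHomo and 1.49 ± 0.511 FPKM in xHet embryos, and Klf11 4.14 ± 1.06 FPKM in xHomo and 5.01 ± 0.110 FPKM in xHet embryos. Klf7 averaged 1.91 ± 0.574 FPKM in xHomo and 1.44 ± 0.247 FPKM in xHet embryos. Limma adjusted p for these 3 ran from 0.557 to 0.670. Klf16, the closest relative of Klf14, from which it is thought to have arisen by retrotransposition, named after values were seen, averaged 5.91 ± 0.662 FPKM in xHomo and 5.88 ± 0.560 FPKM in xHet embryos.

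**Figure D5:**
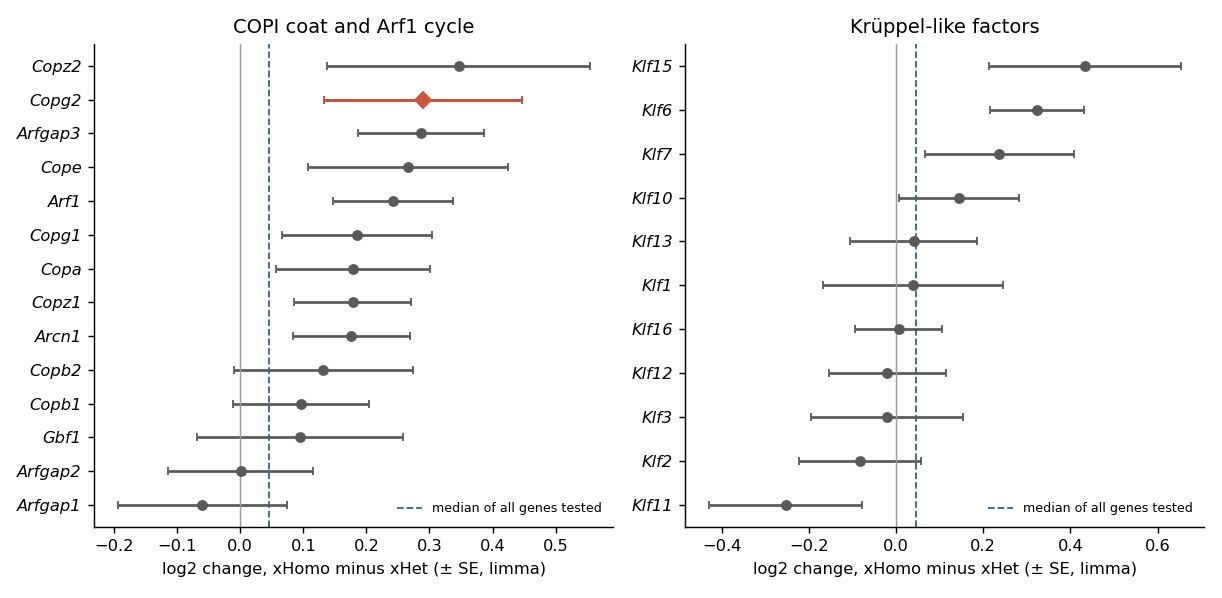
Log2 change (xHomo minus xHet, with limma SE as bars) of tested COPI coat and Arf1 cycle genes with Copg2 as a red diamond (left) and of tested Krüppel-like factor genes (right), with the median of all tested genes as a dashed line. Copg2, at 0.29, has the highest value of the left panel after Copz2 at 0.35, and no gene shown passed.

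Because Mest marks mesoderm, mesoderm markers and other tissue markers were set beside it. In bulk RNA of whole embryos, fewer cells of a type and less RNA per cell cannot be told apart. Of 16 mesoderm and mesenchyme genes all were tested, 9 were higher, 7 lower and 0 passed, with a median log2 change of 0.13 beside 0.046 for all tested genes. That median was 0.058 after TPM rescaling, beside -0.026 for all tested genes. With Xist as a covariate it was 0.044, under the 0.085 of all tested genes. Twist2, a mesenchymal transcription factor gene, averaged 13.6 ± 1.91 FPKM in xHomo and 9.08 ± 1.24 FPKM in xHet embryos (limma adjusted p = 0.346). The intermediate filament gene Vim averaged 283 ± 40.3 FPKM in xHomo and 217 ± 9.55 FPKM in xHet embryos (limma adjusted p = 0.494). Prrx1 averaged 18.1 ± 2.92 FPKM in xHomo and 15.1 ± 1.01 FPKM in xHet embryos, and Meox1 22.9 ± 2.33 FPKM in xHomo and 26.3 ± 2.01 FPKM in xHet embryos (limma adjusted p = 0.566 and 0.547). The summed FPKM of the list was 488 to 673 in xHomo embryos, against 500.2 to 546 in xHet embryos. Its highest sum, 673, was that of xHomo embryo 9, where Mest was lowest, and its lowest, 488, that of xHomo embryo 3. Vim alone gave 332 of the 673 and 247 of the 488. The sums were not rescaled, and the libraries differed in their totals over all genes. Those totals were 654212 for xHomo embryo 9 but only 500126 for xHomo embryo 3. The median log2 difference of the list from the xHet mean was 0.24 in xHomo embryo 9 and 0.14 in xHomo embryo 3. Medians of all tested genes in these 2 embryos were 0.081 and -0.27. By the list median xHomo embryo 2, at -0.028, was lowest, so the place of xHomo embryo 3 depends on the measure. The part of library scale in the order of the sums was not tested. In xHomo embryo 9 none of the 16 differed by at least 1 log2 unit, and in xHomo embryo 3 there were 3. The shares of all tested genes that did so were 4.56% in xHomo embryo 9 and 10.2% in xHomo embryo 3. Of 6 genes of mesoderm induction, an earlier step, 3 were tested, and all 3 were lower in xHomo embryos and 0 passed, with a median log2 change of -0.15. T, which encodes brachyury, averaged 6.53 ± 1.45 FPKM in xHomo and 7.71 ± 1.08 FPKM in xHet embryos (limma adjusted p = 0.674). Tbx6 averaged 3.13 ± 0.954 FPKM in xHomo and 3.52 ± 0.666 FPKM in xHet embryos, and Msgn1 1.58 ± 0.473 FPKM in xHomo and 1.62 ± 0.0723 FPKM in xHet embryos (limma adjusted p = 0.826 and 0.946).

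Heart, primitive red cell and neural markers were present in every embryo, and their levels differed between embryos. The 6 neural genes summed to 183, 172 and 164 FPKM in xHomo embryos 4, 5 and 6, where Mest was above every xHet embryo. They summed to 93.9 to 146 FPKM in the other xHomo and 113 to 125 FPKM in xHet embryos. The 6 primitive red cell genes summed to 4141 and 5183 FPKM in xHomo embryos 4 and 6, to 7803 to 12617 FPKM in the other xHomo embryos and to 8369 to 8604 FPKM in xHet embryos. Summed FPKM of the cardiac list was 402 to 673 in xHomo and 426 to 459 in xHet embryos. Placental trophoblast markers summed to 1.66 to 6.69 FPKM in xHomo and 1.98 to 4.23 FPKM in xHet embryos, and 2 of the 10, Tpbpa and Ctsq, were listed at 0 in all. The 5 decidual markers summed to 7.78 to 20.4 FPKM in xHomo and 15.5 to 17.4 FPKM in xHet embryos. Nearly all of this came from Dcn and Alpl, which many tissues express, at 6.48 ± 1.92 and 10.3 ± 2.30 FPKM in xHomo embryos and 5.64 ± 0.214 and 10.5 ± 0.861 FPKM in xHet embryos. Of the others, Pgr reached at most 0.18 FPKM in xHomo and 0.11 FPKM in xHet embryos. Prl3c1 was listed at 0 in all embryos and Prl8a2 in all xHet embryos, with at most 0.18 FPKM in xHomo embryos. The sum of 6 yolk sac and visceral endoderm genes was lowest in xHomo embryo 3, at 10.4 FPKM against 27.4 to 66.2 FPKM in the other xHomo and 29.3 to 41.9 FPKM in xHet embryos. The part of tissue make-up in the Mest values was not tested.

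Xist, which coats the X chromosome that is silenced in females, differed between embryos. Xist was at most 0.10 FPKM in xHomo embryos 1, 4, 5, 6 and 8 and in all xHet embryos, and 30.5 to 159 FPKM in the other 5 xHomo embryos, which hold the 2 lowest Mest values. Mest averaged 1257 ± 228 FPKM in the 5 xHomo embryos with Xist near 0 and 796 ± 322 FPKM in the 5 with higher Xist (SD, n = 5 each), against 1053 ± 77.8 FPKM in xHet embryos. Within the embryos with Xist near 0, a comparison chosen after seeing the data, the log2 difference of Mest was 0.24 (limma adjusted p = 0.471), the opposite sign to that over all embryos. The same fit gave Copg2 a difference of 0.28 (limma p = 0.00873, adjusted p = 0.164), with all 5 xHomo embryos, at 22.7 to 28.6 FPKM, above the xHet embryos. The median difference of all genes in that fit was 0.10, and the share of genes with so low a p was not counted. The share of genes with all 5 of these xHomo embryos above every xHet embryo was not counted either, for Copg2 or for Klf14. Copg2 also varied little among xHet embryos, with an SD of log2(FPKM+1) larger than that of only 7.7% of the genes tested. For Klf14 the difference was 0.22 (exact permutation p = 0.0357, unadjusted, with 0.0179 the smallest p possible), at 0.29 to 0.58 FPKM in the 5 xHomo embryos against 0.16 to 0.25 FPKM in xHet embryos. No xHet embryo had high Xist, so xHomo embryos 2, 3, 7, 9 and 10 have no matching xHet embryo, and the part of sex in their values was not tested.

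Whether members varied together across the 10 xHomo embryos could be asked for 1 of 3 pairs. The Copg2 value of xHomo embryo 9 lay away from the rest, by a gap of 0.533 of the range where the limit set was 0.5. For that reason no Pearson correlation or test of Copg2 with Mest or Klf14 is given over all 10. As a description, the Spearman rho of Mest with Copg2 over the 10 xHomo embryos was 0.0061. Mest and Klf14 gave Pearson r = 0.241 (permutation p = 0.468) and Spearman rho = 0.231 (permutation p = 0.519), with 1 pair tested and nothing to adjust over. The Pearson r was -0.403 without xHomo embryos 3 and 9, so its sign rested on them. Without xHomo embryo 9 all 3 pairs could be taken, and Mest and Copg2 gave r = 0.635, with permutation p = 0.0638 and 0.191 after adjustment over the 3. Their rho was 0.383, with permutation p = 0.314 and 0.937 after adjustment. That r was 0.339 on also leaving out xHomo embryos 3 and 4.

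The genes whose order across the 10 xHomo embryos was most like that of a member are given as a description, since all share the same libraries. The Spearman rho with Mest was 0.988 for each of Cbx2, Creld2, Ddost, Gpatch2 and Gpr180. Cbx2 encodes a Polycomb protein, Creld2 a protein of the endoplasmic reticulum, and Ddost a subunit of the enzyme that attaches sugar chains to new proteins. Cbx2 spanned 22.0 to 34.8 FPKM in xHomo embryos and 27.2 to 30.1 FPKM in xHet embryos, a far smaller range in proportion than that of Mest. With Copg2 the rho was 0.988 for Ehbp1, 0.976 for Exoc6b, 0.973 for Rnft1 and 0.964 for Gstcd and Gucy1a2. Exoc6b, which encodes an exocyst subunit, stood at 3.15 to 5.33 FPKM in xHomo and 3.30 to 3.94 FPKM in xHet embryos, with its highest value, like that of Copg2, in xHomo embryo 9.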

How the data were processed

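The tools named are TopHat, Cufflinks and bcl2fastq 1.8.2, with mm9 as the build, per the submitters' processing notes. Other versions, the annotation, any filter and strand use: not given in the sources used here. The authors deposited FPKM values per gene for each of 13 embryos, to 2 decimals, so no read counts are held and the depth is unknown. Summed FPKM ran from 500126 to 662936 in xHomo and from 543948 to 570161 in xHet embryos. Locus starts in the table count from 0, since the locus length equals the RefSeq length for 7169 of 20636 matched genes without adding 1 and for 455 with it, and 1 was added to those printed. The joined locus of Mest and Copg2 and unstated strand use make their values less certain.

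Groups came from the sample titles. Genes with a mean of at least 1 FPKM, 12755 in all, were fitted on log2(FPKM+1) with limma 3.58.1 in R 4.3.3 (eBayes with a trend, two-sided, no covariates, Benjamini-Hochberg over all of them). Fold changes on this scale understate those of low genes. Single values were compared by exact permutation over all splits, and pairs by 100000 permutations, not taken if neighbouring values lay more than 0.5 of the range apart. Python 3.11.15 with scipy 1.17.1 was used, and the fit was tested on simulated data. The members and gene lists were chosen with earlier results of these data known. A gene of the neighbour list is not reported here. The rule for other named genes was each list's measured neighbours or up to 4 members with the smallest p, genes departing in an embryo where Mest departs, and the 5 genes most like each tested member by Spearman rho. Alternatives covered the pseudocount, filter, scaling, trend, test, Xist, replicate block and each embryo left out.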

Additional observations from a re-analysis of the deposited data

Results flagged for a closer look

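Within the 10 xHomo embryos, xHomo embryo 9 stood apart from its neighbours in value by more than Dixon's 95% critical value for 10 samples in 3 measures on the log2 scale. The gap between it and the next embryo, divided by the whole range, was 0.491 for Mest (296 FPKM, the lowest), 0.533 for Copg2 (41.9 FPKM, the highest) and 0.725 for the log2 ratio of Mest to Copg2, each with 1 FPKM added (2.79, the lowest). The ratio is built from the other measures, so these are not 3 separate observations. On the linear FPKM scale the gap was 0.302 for Mest, under the critical value, and 0.618 for Copg2, above it. Klf14 had gaps of 0.240 and 0.322 at its low and high ends, both under it. Chance flags about 1 in 20 groups. In the same embryo 4.56% of all tested genes differed from the xHet mean by 1 log2 unit or more, and its Xist was 159 FPKM; their part in these values was not tested.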

How the results depend on the processing

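The Mest and Copg2 differences passed under 0 of the alternatives run. The Mest difference changed sign with the Xist covariate (0.23), among embryos with Xist near 0 (0.24, added after seeing the data) and without xHomo embryo 9 (0.036), and ranged from -0.22 to 0.036 with 1 embryo left out. It was -0.34 after quantile normalization and -0.23 after TPM rescaling, against -0.15 as reported. The Copg2 difference ranged from 0.22 to 0.33 with 1 embryo left out and was -0.0083 with the replicate number as a block. Only embryos whose number occurs in both groups inform a block value, for Copg2 and for the other measures. Block values therefore leave out xHomo embryo 9, where Copg2 was highest, and every other xHomo embryo without an xHet embryo of its number. They are not estimates over all embryos. For Klf14 the difference was 0.14 to 0.20 with 1 embryo left out and 0.21 with the replicate block, whose smallest possible p is 0.25. It was 0.18 with no filter (limma adjusted p = 0.578), 0.58 with a pseudocount of 0.1 and 0.044 with one of 5, so its size depends on the pseudocount. The Klf14 fits with an Xist covariate and without a trend were not run, since its test was a permutation. Under the replicate block the Mest difference was -0.22 and that of the log2 ratio -0.22. Deviations of embryos with the same number had correlations of -0.0652, -0.0403 and -0.0383 over genes. Those with different numbers ran from -0.143 to 0.116, so these values cannot tell whether embryos with the same number share a litter or batch. At a 1.5-fold threshold 2 xHomo embryos departed in Mest and 1 in Copg2, against 1 and 0 at 1 log2 unit. The ratio of Mest to Copg2 kept its direction under all 17 alternatives run and passed in none. Its size did not hold, at -0.047 among embryos with Xist near 0 (exact permutation p = 0.804) against -0.44 as reported. No run of the ratio with an Xist covariate was made. The unknown depth leaves the counting error of Klf14 unknown.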
